A study of Mus musculus with 6 samples.

Results

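The epithelial junction genes examined here were Cdh1, Epcam, Cldn3, Cldn4 and Cldn7, together with the surface protease gene Tmprss4 and the regulators Elf3, Grhl2, Ovol1 and Esrp1. They were taken by symbol from the deposited table and all 10 were found among its 23381 genes. The values are RPKM, which are reads per kilobase of gene scaled to each library's total reads. The libraries came from 3 mammary tumours of Balb/c mice given Vismodegib, a small molecule that binds Smoothened, and from 3 tumours of mice given DMSO, the vehicle. The tumours of both groups grew from 500000 cells of 4T1, an established mouse mammary carcinoma line syngeneic to Balb/c, injected into the mammary fat pad of the groin in mice of 10 weeks, and were dosed 3 times a week over 3 weeks, with 2 mg per mouse in the Vismodegib group. Whole tumours were frozen and extracted, so that epithelial, stromal and blood cells share each library. Nothing in the labels ties each library to a separate animal. Any p-value then reflects only how far these samples scatter, which may be technical. The genes were chosen by their names with their RPKM difference between Vismodegib and DMSO already known, and that difference is therefore given for them as a description without a test.

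Epithelial cells are held together by adherens junctions, built on the calcium-dependent cadherin that Cdh1 encodes, and are sealed by tight junctions, whose strands are made of claudins. Epcam encodes a surface glycoprotein that binds claudin 7 and is a general marker of carcinoma cells. The transcription factors Grhl2 and Ovol1 are known to hold epithelial cells in their junction-bearing state, Elf3 is an ETS factor of epithelia, and Esrp1 directs the epithelial pattern of splicing. Loss of these genes accompanies the epithelial to mesenchymal transition of carcinoma cells, in which factors such as Zeb1 and Snai1 repress Cdh1 through E-box sequences.

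The 10 genes did not differ alike between the groups. Cldn4, Elf3 and Tmprss4 were higher in every Vismodegib tumour than in every DMSO tumour, with means 1.82, 2.83 and 3.03 times those of DMSO. The groups overlapped in the other 7 genes. Epcam and Grhl2 were on average 1.87 and 1.51 times as high, Cldn7, Cldn3, Esrp1 and Cdh1 between 1.38 and 1.11 times, and Ovol1, the least abundant, 0.676 times, which turned to 3.07 times without DMSO replicate 3. In whole tumours a larger share of epithelial cells and more RNA per epithelial cell cannot be told apart. Among the 11818 genes that averaged 0.5 RPKM or more, which were the genes tested, every Vismodegib library was above every DMSO library in 4.29%, and the groups did not overlap in either direction in 5.03%. The count of 3 in 10 was among the values that led to the choice of these genes and nothing is read from it. Leaving out a library can only keep or raise this count, since separate groups stay separate. It was 7 without DMSO replicate 3 (8.81% of all genes tested) and 6 without Vismodegib replicate 3 (15% of all genes tested). Without any of the other libraries it was 3 or 4 (5.16% to 12.3% of all genes tested). The median difference of the 9 genes that reached 0.5 RPKM was 0.43 on the scale log2(RPKM + 0.5), against 0.05 for all genes tested, and it was 0.78 without Vismodegib replicate 3. In the fit across all genes (limma), 0 of 11818 genes, or 0%, passed an adjusted p of 0.05, and 266 had an unadjusted p under 0.05, 229 of them higher and 37 lower in Vismodegib. Of all genes tested, 58.4% had a difference above 0. The number past the threshold was 19 when DMSO replicate 1 was dropped and 420 with library weights. These weights were 7.28 for DMSO replicate 3 and 0.32 for each other DMSO library. Every value given with library weights is therefore a comparison mainly with DMSO replicate 3.

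**Figure D1:**
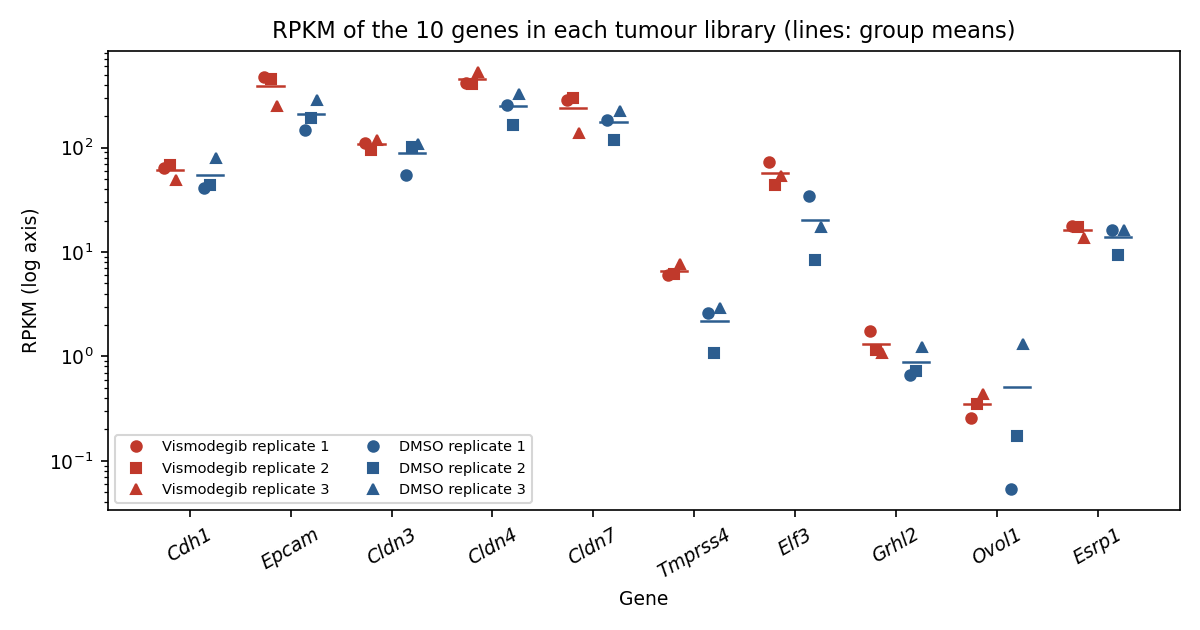
RPKM on a log axis of the 10 genes in each library, with Vismodegib in red to the left of DMSO in blue, marker shapes for replicates and lines for group means (n = 3 each). The red and blue points are separate for Cldn4, Tmprss4 and Elf3 and interleave in the other 7 genes, and Ovol1 spans 0.0534 to 1.31 RPKM within DMSO.

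The levels covered a wide range and kept a nearly fixed order in every tumour. Cldn4, Epcam and Cldn7 held the first 3 places in all 6 libraries, Cldn3 the fourth, Tmprss4 the eighth, and Grhl2 and Ovol1 the last places. Cldn4 ranked between 114 and 164 among the 23381 genes of the Vismodegib libraries and between 182 and 374 in the DMSO libraries. Elf3 changed place within the order. It stood above Cdh1 in Vismodegib replicates 1 and 3, below Cdh1 in Vismodegib replicate 2 and in all 3 DMSO tumours, and below Esrp1 as well in DMSO replicate 2. Neighbours in the order were often closer than their spread, such as Cldn4 and Epcam in the Vismodegib group at 452 ± 70.8 and 390 ± 121 RPKM (mean ± SD, n = 3).

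Promoter sequences of 5 of the 10 genes were found in the RefSeq table of the GRCm38.p6 build, and 4 are shown because their genes followed different libraries: Elf3 and Cldn4, in which the groups were separate, and Epcam and Cldn3, in which they overlapped. Each runs 5′ to 3′ on the gene's strand from 250 bases before to 50 bases after the annotated start. Capitals mark CAGGTG or its reverse complement CACCTG, the E-box read by Snai and Zeb factors. They also mark GGGCGG or its reverse complement CCGCCC, a site of KLF and SP factors. The search also covered AACCNGTT, the site of Grhl factors, and CCGGAAG, the site of ETS factors such as Elf3, on both strands. The intervals are chr1:135258423-135258722 on the minus strand for Elf3, chr5:134946885-134947184 on the minus strand for Cldn4, chr17:87635729-87636028 on the plus strand for Epcam and chr5:134985964-134986263 on the plus strand for Cldn3.
Elf3: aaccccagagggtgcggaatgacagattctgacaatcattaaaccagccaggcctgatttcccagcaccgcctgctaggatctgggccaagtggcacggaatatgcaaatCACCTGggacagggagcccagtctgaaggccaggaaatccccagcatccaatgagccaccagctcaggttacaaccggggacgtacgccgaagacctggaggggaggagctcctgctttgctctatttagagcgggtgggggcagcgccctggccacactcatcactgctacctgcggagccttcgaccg
Cldn4: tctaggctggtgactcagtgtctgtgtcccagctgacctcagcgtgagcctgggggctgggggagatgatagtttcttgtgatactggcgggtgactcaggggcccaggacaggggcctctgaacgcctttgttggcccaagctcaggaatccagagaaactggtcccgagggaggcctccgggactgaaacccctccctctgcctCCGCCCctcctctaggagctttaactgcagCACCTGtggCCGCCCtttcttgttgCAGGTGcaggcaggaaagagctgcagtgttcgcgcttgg
Epcam: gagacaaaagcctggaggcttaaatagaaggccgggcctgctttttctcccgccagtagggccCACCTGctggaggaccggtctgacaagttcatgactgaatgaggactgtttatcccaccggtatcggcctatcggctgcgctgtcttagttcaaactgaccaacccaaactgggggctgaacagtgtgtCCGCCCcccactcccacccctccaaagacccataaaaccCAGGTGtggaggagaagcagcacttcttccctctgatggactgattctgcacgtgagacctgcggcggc
Cldn3: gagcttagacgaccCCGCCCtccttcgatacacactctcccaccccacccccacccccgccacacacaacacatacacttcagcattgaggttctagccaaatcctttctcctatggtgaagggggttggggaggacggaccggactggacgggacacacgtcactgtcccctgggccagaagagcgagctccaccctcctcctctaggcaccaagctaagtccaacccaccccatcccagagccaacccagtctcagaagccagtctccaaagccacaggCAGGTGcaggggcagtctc

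The E-box was present in each of these 4 windows, as 1 match in Elf3 and Cldn3 and 2 in Cldn4 and Epcam, and it was found in 20.2% of the 32851 promoters of 300 bases in the table. Counting both starts of Cldn7, it was in 5 of 6 windows. The KLF and SP site was in 4 of 6 windows against 35.7% of all, and the ETS site in 2 of 6, both of Cldn7, against 8.86% of all. The Grhl site was in 0 of 6 windows and in 2.09% of all. A match of letters is no binding site, and no match says only that these letters were not in these windows.

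Cdh1, which encodes E-cadherin (ENSMUSG00000000303.12, mm10, chromosome 8, 106603351 to 106670246, plus strand), was at 63.5, 68.5 and 49.4 RPKM in the Vismodegib tumours (replicates 1, 2 and 3) and at 40.6, 43.3 and 80.1 RPKM in the DMSO tumours (replicates 1, 2 and 3). The highest Cdh1 level of all 6 tumours was therefore in a DMSO library, and the Vismodegib values lay inside the DMSO range. The log2 difference, Vismodegib minus DMSO, was 0.20 (SE 0.323). Dropping a DMSO library gave 0.02 (replicate 1), 0.07 (replicate 2) and 0.51 (replicate 3), dropping Vismodegib replicate 2 or 3 gave 0.10 and 0.34, and library weights, which count variable libraries less, gave -0.24.

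Epcam (ENSMUSG00000045394.9, chromosome 17, 87635979 to 87651129, plus strand) was at 470, 449 and 251 RPKM in the Vismodegib tumours and at 146, 191 and 288 RPKM in the DMSO tumours. Vismodegib replicate 3 was lower than DMSO replicate 3, while the other 4 libraries were apart. Its log2 difference was 0.91 (SE 0.362). Set against Cdh1 in the same library, Epcam was 7.40, 6.56 and 5.09 times as high in the Vismodegib tumours and 3.60, 4.41 and 3.60 times in the DMSO tumours. This ratio was chosen after its values were seen, and how often other genes separate the groups when divided by Cdh1 was not tested.

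Of the 18 claudin genes in the table, Cldn3, Cldn4 and Cldn7 made up 89.7%, 95.4% and 92.0% of the summed claudin RPKM in the Vismodegib tumours and 75.7%, 93.5% and 96.4% in the DMSO tumours. Cldn5, the claudin of blood vessel endothelium, was the next most abundant. It was at 79.5, 31.3 and 60.3 RPKM in the Vismodegib tumours and at 150.2, 21.2 and 16.8 RPKM in the DMSO tumours, so that DMSO replicate 1 stood out. Cldn1, a broadly expressed epithelial claudin, was at most 0.214 RPKM in any library.

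Cldn4 (ENSMUSG00000047501.3, chromosome 5, 134945119 to 134946934, minus strand) encodes a tight junction strand protein that tightens the barrier to sodium. It was at 415, 406 and 533 RPKM in the Vismodegib tumours (replicates 1, 2 and 3) and at 258, 165 and 322 RPKM in the DMSO tumours (replicates 1, 2 and 3). All 3 Vismodegib tumours lay above the highest DMSO tumour. Its log2 difference was 0.90 (SE 0.316) and 0.44 with library weights.

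Cldn3 (ENSMUSG00000070473.4, chromosome 5, 134986214 to 134987472, plus strand) encodes a barrier claudin, and its start lies 39.3 kb from that of Cldn4, with the genes pointing away from each other. Cldn3 did not follow its neighbour. It was at 112, 95.4 and 117 RPKM in the Vismodegib tumours and at 54.0, 102 and 108 RPKM in the DMSO tumours, with a log2 difference of 0.35 (SE 0.319). A single DMSO library was low, and dropping DMSO replicate 1 gave a difference of 0.04, and library weights -0.03. The Cldn4 to Cldn3 ratio was 3.72, 4.26 and 4.56 in the Vismodegib tumours and 4.78, 1.63 and 2.99 in the DMSO tumours.

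Cldn7 (ENSMUSG00000018569.12, chromosome 11, 69964779 to 69967885, plus strand), whose protein also sits along the lateral membrane and binds Epcam, was at 285, 300 and 137 RPKM in the Vismodegib tumours and at 183, 117 and 225 RPKM in the DMSO tumours. The log2 difference was 0.43 (SE 0.387), with 0.79 without Vismodegib replicate 3, 0.23 without Vismodegib replicate 2, 0.27 without Vismodegib replicate 1 and 0.17 without DMSO replicate 2. Cldn4 and Cldn7 kept a nearly constant ratio in 5 libraries and parted in 1. The Cldn4 to Cldn7 ratio was 1.46 and 1.35 in Vismodegib replicates 1 and 2 and 1.41, 1.41 and 1.43 in the DMSO tumours, but 3.88 in Vismodegib replicate 3.

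Tmprss4 (ENSMUSG00000032091.15, chromosome 9, 45172726 to 45204092, minus strand) encodes a transmembrane serine protease of epithelial and carcinoma cells. The Vismodegib tumours had 6.05, 6.18 and 7.65 RPKM and the DMSO tumours 2.58, 1.08 and 2.91 RPKM. The lowest Vismodegib value was above the highest DMSO value, and Vismodegib replicate 3, which was low in Epcam and Cldn7, was the highest of the 6. The log2 difference was 1.48 (SE 0.335). The Cldn4 to Tmprss4 ratio was 68.6, 65.7 and 69.7 in the Vismodegib tumours and 100.05, 154 and 111 in the DMSO tumours. Of the 13 genes of the Tmprss family in the table, Tmprss6, which in liver cleaves hemojuvelin, was the most abundant, at 35.2, 30.6 and 28.0 RPKM in Vismodegib and 14.0, 14.4 and 26.1 RPKM in DMSO.

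Elf3 (ENSMUSG00000003051.13, chromosome 1, 135253575 to 135258568, minus strand) had a log2 difference of 1.66 (SE 0.471), the largest of the 9 genes with all libraries in, while Tmprss4 was ahead without Vismodegib replicate 1 (1.53 against 1.47), without DMSO replicate 3 (1.69 against 1.67) and by the fold of means. It was at 72.9, 43.7 and 53.4 RPKM in the Vismodegib tumours (replicates 1, 2 and 3) and at 34.4, 8.34 and 17.3 RPKM in the DMSO tumours (replicates 1, 2 and 3). The lowest Vismodegib value, in replicate 2, stood close above the highest DMSO value, in replicate 1, and the coefficient of variation was 26.2% in Vismodegib and 66.2% in DMSO. The difference was 1.17 without DMSO replicate 2 and 2.16 without DMSO replicate 1. Elf3 was the main Elf family gene, with 88.2%, 83.7% and 89.9% of the sum of Elf1 to Elf5 and Ehf in Vismodegib and 83.0%, 55.3% and 67.0% in DMSO.

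Grhl2, a grainyhead factor that acts on Cdh1 and claudin genes (ENSMUSG00000022286.16, chromosome 15, 37233036 to 37363569, plus strand), was low throughout. It was at 1.74, 1.14 and 1.08 RPKM in the Vismodegib tumours and at 0.663, 0.723 and 1.24 RPKM in the DMSO tumours, which corresponds to about 123 to 358 reads. DMSO replicate 3 stood above Vismodegib replicates 2 and 3. The log2 difference was 0.41 (SE 0.278), with 0.25 without Vismodegib replicate 1 and 0.09 with library weights. The related Grhl1 was at 0.598, 0.228 and 1.53 RPKM in Vismodegib and 0.477, 0.181 and 0.192 RPKM in DMSO and exceeded Grhl2 in Vismodegib replicate 3, and Grhl3 was at most 0.0266 RPKM.

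Ovol1, a zinc finger repressor of mesenchymal genes (ENSMUSG00000024922.2, chromosome 19, 5549136 to 5560646, minus strand), did not average 0.5 RPKM and was not tested. It was at 0.255, 0.349 and 0.435 RPKM in the Vismodegib tumours and at 0.0534, 0.172 and 1.31 RPKM in the DMSO tumours. These values rest on about 31.5, 44.3 and 75.0 reads in Vismodegib and 5.95, 17.8 and 158 reads in DMSO. The DMSO tumours held both the lowest and the highest value, and the log2 difference was -0.06. Without DMSO replicate 3, all 3 Vismodegib tumours lay above the other DMSO tumours. Its relative Ovol2 was steadier, at 1.16, 1.99 and 1.38 RPKM in Vismodegib and 0.998, 1.22 and 1.12 RPKM in DMSO.

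Esrp1, the splicing regulator (ENSMUSG00000040728.15, chromosome 4, 11331933 to 11386783, minus strand), varied least, with its highest library 1.88 times its lowest. It was at 17.7, 17.2 and 13.7 RPKM in the Vismodegib tumours and at 16.3, 9.44 and 16.1 RPKM in the DMSO tumours. DMSO replicate 2 was the lowest, and the log2 difference of 0.24 (SE 0.291) was -0.01 without it. Esrp1 supplied 84.7% to 89.7% of the sum of Esrp1 and Esrp2 in Vismodegib and 87.6% to 90.2% in DMSO. The table gives 1 value per gene, so the splice forms that Esrp1 directs were not analysed here.

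Seen by library, the genes were high in different tumours. In Vismodegib replicates 1 and 2, 9 of the 10 genes were above their own mean over the 6 libraries, and in Vismodegib replicate 3 it was 6. In DMSO replicates 1, 2 and 3 it was 2, 1 and 7. By this count DMSO replicate 3 stood between Vismodegib replicates 2 and 3, and it held the highest Cdh1 and Ovol1 values of all. The median deviation of the 10 genes from their means, in log2 units, was 0.43, 0.30 and 0.07 in Vismodegib and -0.44, -0.57 and 0.14 in DMSO.

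**Figure D2:**
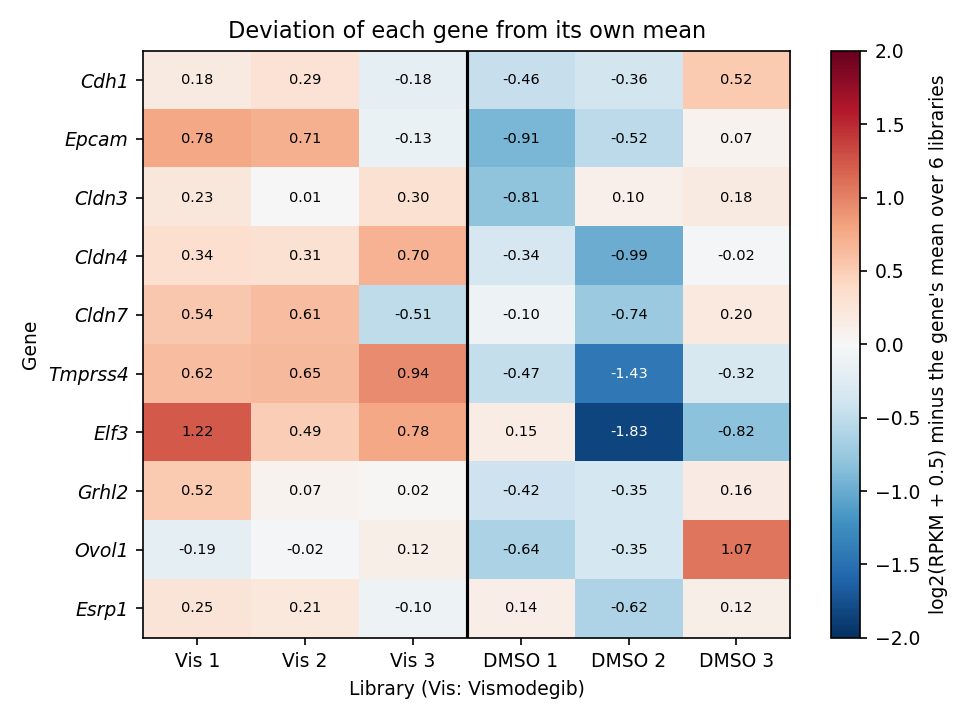
Deviation of log2(RPKM + 0.5) from the gene's own mean over 6 libraries, with genes in rows and libraries in columns, Vismodegib left of the black line and DMSO right of it. Red is above and blue below the mean. Elf3 reaches -1.83 and Tmprss4 -1.43 in DMSO replicate 2, and the DMSO replicate 3 column is above 0 for 7 genes.

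The libraries of a group also varied together in some genes and not in others. With each group's mean taken off, the correlation of log2 values over the 6 libraries had a median of 0.45 among the 45 pairs and was above 0 in 35 of them. These points share libraries and depth, the pairs are not independent, and the values are given as a description. Cldn4 and Tmprss4 had the highest value, 0.97. Cdh1 was most like Epcam (0.89), Ovol1 (0.85) and Grhl2 (0.79), and Cldn7 was most like Esrp1 (0.85). Epcam and Cldn4, both abundant, were at -0.01, and Elf3 and Cldn3 had the lowest value, -0.68. Elf3 went with Esrp1 (0.78) and Tmprss4 (0.71), and was at -0.08 with Cdh1.

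**Figure D3:**
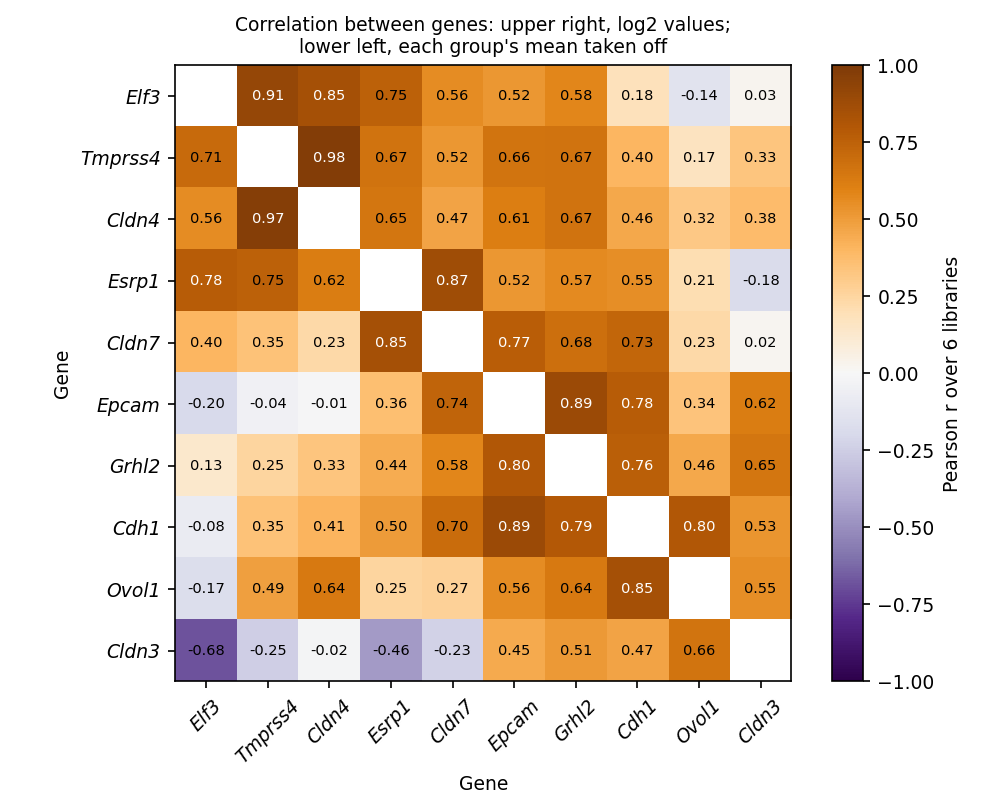
Pearson r over the 6 libraries for each pair of the 10 genes, from log2(RPKM + 0.5) above the diagonal and with each group's mean taken off below it. Cldn4 and Tmprss4 reach 0.98 and 0.97, and Cldn3 has values below 0 with Elf3, Tmprss4, Esrp1, Cldn7 and Cldn4 below the diagonal.

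The genes outside the list whose log2 values over the 6 libraries were most like the mean standardised profile of the 10 genes were Plekhs1 (r = 0.996), Kcnk1, Bcl6, Pfdn4, Gtf2e2, Gm30025, Wbp4 and Tmprss6 (r = 0.976). They were the highest of 10127 candidates averaging 1 RPKM or more, of which 113 had r above 0.9. Plekhs1 was at 4.50, 3.55 and 3.00 RPKM in Vismodegib and 1.40, 0.870 and 3.20 RPKM in DMSO, and Kcnk1, a potassium channel gene, was at 10.6, 9.22 and 8.70 RPKM in Vismodegib and 4.81, 4.48 and 8.36 RPKM in DMSO. Both were high in DMSO replicate 3 as well as in the Vismodegib tumours. Of the 10 genes themselves, Grhl2 was closest to the profile (0.92), followed by Epcam (0.89) and Cldn4 (0.85), and Cldn3 and Ovol1 were farthest (0.52 each). Each of the 10 genes is part of this profile, which raises its value. These values are therefore not comparable with those of genes outside the list.

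Other junction genes were measured to see whether the rest of the apparatus differed between the groups, and no gene of these lists passed limma's test over all genes (Benjamini-Hochberg adjusted p = 1 for each tested gene named in the lists below). The counts of differences above 0 stand against the 58.4% of all genes tested, and counts of separate groups against 4.29% for Vismodegib above DMSO and 5.03% for either direction. Of 22 further tight junction genes, 19 were tested, 15 with differences above 0 and 4 below, with a median of 0.25 against 0.05 for all genes tested. The median was 0.07 with library weights, and dropping DMSO replicate 2, Vismodegib replicate 1 or Vismodegib replicate 3 gave 0.11, 0.13 and 0.42. Marveld3, a membrane component of tight junctions, was at 3.06 ± 0.192 RPKM in Vismodegib and 2.05 ± 0.275 RPKM in DMSO (mean ± SD, n = 3 each), with a difference of 0.49. Occludin, Ocln, the classical strand protein, was at 2.53 ± 0.881 and 1.64 ± 0.648 RPKM in Vismodegib and DMSO (0.50). Tjp3, a scaffold, and F11r, an adhesion molecule, had differences of 0.64 and 0.36. Lsr, the abundant tricellular junction gene, was at 146 ± 12.6 RPKM in Vismodegib and 139 ± 17.1 RPKM in DMSO, a difference of 0.07. Of the 19, only Marveld3 had every Vismodegib library above every DMSO library, a share near that of all genes tested.

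In the adherens junction list, 9 of 11 genes were tested, 7 above 0 and 2 below, with a median of 0.41. Jup, which encodes plakoglobin, was at 23.04 ± 4.28 RPKM in Vismodegib and 15.4 ± 3.28 RPKM in DMSO (0.57), and the nectin genes Nectin1 and Nectin4 had differences of 0.60 and 0.58. These were the 3 tested genes of the list whose groups did not overlap. Nectin3, untested because it averaged under 0.5 RPKM and named after its values were seen, went the other way, at 0.158, 0.231 and 0.258 RPKM in Vismodegib and 0.568, 0.435 and 0.396 RPKM in DMSO. Ctnnd1, the catenin that stabilises E-cadherin at the membrane, had a difference of 0.41. Dropping Vismodegib replicate 1, DMSO replicate 1 or DMSO replicate 2 gave medians of 0.18, 0.22 and 0.15, and library weights 0.06.

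All 9 desmosome genes were tested and had differences above 0, with a median of 0.32. Dsc2, a desmosomal cadherin, was at 3.09 ± 1.33 RPKM in Vismodegib and 1.26 ± 0.799 RPKM in DMSO (1.09), and its groups did not overlap. Pkp1, Dsg2 and Dsp, a plaque protein, a cadherin and the linker to keratin filaments, had differences of 0.75, 0.48 and 0.41. Library weights gave a median of -0.01, and dropping DMSO replicate 1 or 3 gave 0.21 and 0.54.

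Among 13 further surface molecules, membrane proteases and their inhibitors, 10 were tested, 9 above 0 and 1 below, with a median of 0.29. St14, which encodes matriptase, was at 36.1 ± 2.57 RPKM in Vismodegib and 28.04 ± 3.83 RPKM in DMSO (0.37), and Spint2, which encodes an inhibitor of such proteases, was at 197 ± 12.1 RPKM in Vismodegib and 159.7 ± 19.2 RPKM in DMSO (0.31). Neither overlapped between the groups. Tspan8, a tetraspanin, had a difference of 0.35. Prss22, another serine protease, was at 144.5 ± 34.0 RPKM in Vismodegib and 141 ± 92.7 RPKM in DMSO (0.27). The median was 0.01 with library weights.

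Of 17 further epithelial regulators, 11 were tested, 10 above 0 and 1 below, with a median of 0.32 that was 0.14 with library weights and 0.53 without DMSO replicate 3. Tfap2c, an AP-2 factor, was at 1.51 ± 0.444 RPKM in Vismodegib and 0.549 ± 0.270 RPKM in DMSO, with a difference of 0.95 (SE 0.293), and its groups did not overlap. Rbm47, an RNA-binding protein, and Grhl1 had differences of 0.89 and 0.60 with overlap. A further 9 regulator and surface genes averaged under 0.5 RPKM. Of these, 4 were higher in every Vismodegib library than in every DMSO library, namely Ehf, Elf5, Spdef and Tmprss13, and the rest overlapped. The share was 3.49% among the 11563 genes under that level. The lists were chosen with earlier results of these data known, and nothing is read from the count. Ehf, Elf5 and Spdef were highest in Vismodegib replicate 1, and for Spdef the gap was less than 1 read.

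**Figure D4:**
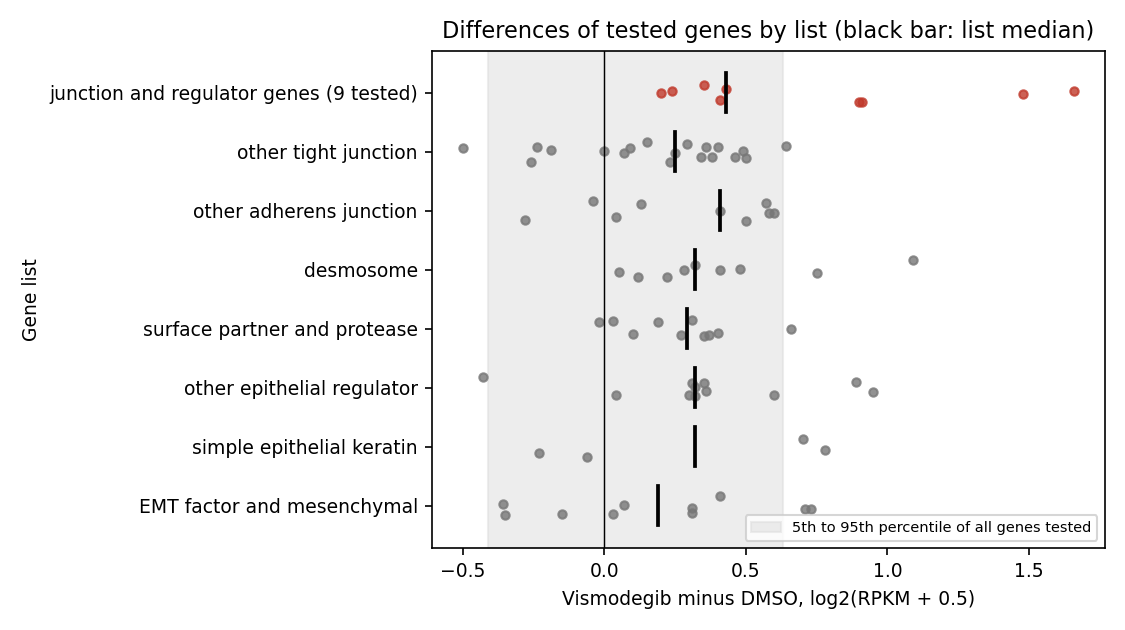
Difference between Vismodegib and DMSO on the log2(RPKM + 0.5) scale for each tested gene, by list, with a black bar for the list median and a grey band for the 5th to 95th percentile of all genes tested (-0.41 to 0.63). The 9 genes in red were chosen with these differences known. Elf3, Tmprss4, Epcam and Cldn4 lie at 1.66, 1.48, 0.91 and 0.90, beyond the band. Genes of other lists also lie beyond it, such as Dsc2 at 1.09 and Tfap2c at 0.95 above it and Cldn23 at -0.50 and Gata3 at -0.43 below it.

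The mesenchymal side was measured beside these lists. Of 13 transcription factors and markers of the mesenchymal state, 10 were tested, 7 above 0 and 3 below, with a median of 0.19. The median was 0.03 with a filter of 1 RPKM, 0.08 when Vismodegib replicate 1 was dropped and 0.37 when DMSO replicate 2 was dropped. Cdh11, a mesenchymal cadherin, was at 1.36 ± 0.563 RPKM in Vismodegib and 0.609 ± 0.0810 RPKM in DMSO (0.71). It did not overlap between the groups, and neither did Prrx1 (0.41) and Twist2 (0.31). Snai2, a repressor of Cdh1 that averaged under 0.5 RPKM and was not tested, was named after its values were seen, at 0.654, 0.359 and 0.819 RPKM in Vismodegib and 0.0925, 0.241 and 0.269 RPKM in DMSO. The remaining factors of the list, also named after their values were seen, overlapped between the groups. Snai1 and Twist1 had differences of -0.15 and -0.36. Zeb2 was at 0.07, and Zeb1, which was not tested, at 0.11. Sparc, a matrix protein gene, had a difference of 0.73. The abundant markers Vim and S100a4 were at 193 ± 69.8 and 975 ± 145 RPKM in Vismodegib and at 261 ± 138 and 1104 ± 739 RPKM in DMSO, with differences of -0.35 and 0.03.

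The keratins Krt7, Krt8, Krt18 and Krt19 mark simple epithelia and were abundant in all 6 libraries. Their sum was 1646, 1555 and 1738 RPKM in Vismodegib and 1149, 2071 and 2061 RPKM in DMSO, so the groups overlapped. Krt7 was at 95.2 ± 7.59 RPKM in Vismodegib and 56.0 ± 12.9 RPKM in DMSO (0.78), Krt19 had a difference of 0.70, and Krt8 and Krt18 had differences of -0.23 and -0.06. The genes examined here were also taken as a share of this keratin sum in the same library. Epcam, Cldn3, Cldn4, Grhl2 and Tmprss4 were then higher in every Vismodegib tumour than in every DMSO tumour. Elf3, Cdh1, Cldn7, Ovol1 and Esrp1 overlapped. The share of all genes tested that separated in this way was 1.9%. The genes were chosen with their RPKM difference already known, and nothing is read from how many separated. The sum was higher in DMSO replicates 2 and 3 than in any other library, which lowers every share there. Without the division, Epcam, Cldn3 and Grhl2 overlapped between the groups and Elf3 did not. Cldn3 was at 6.78%, 6.14% and 6.72% of the keratin sum in Vismodegib and at 4.70%, 4.91% and 5.23% in DMSO. Elf3 was at 4.43%, 2.81% and 3.07% in Vismodegib and at 3.00%, 0.403% and 0.839% in DMSO.

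Markers of other cells also differed between the libraries. The summed RPKM of 10 skin keratinocyte genes was 143, 216 and 252 in Vismodegib and 70.7, 113 and 157 in DMSO. Most of each sum came from Krt14 alone, at 128, 200 and 173 RPKM in Vismodegib and 67.2, 98.6 and 141 RPKM in DMSO. Krt1, Krtdap and Dsg1a of the same list were listed at 0 in Vismodegib replicates 1 and 2 and DMSO replicate 1. The sum therefore followed Krt14 and is no measure of skin in those libraries, and which cells Krt14 came from was not tested. The cornified layer genes Krtdap and Lor were at 27.2 and 17.6 RPKM in Vismodegib replicate 3, against at most 1.97 and 2.70 RPKM in the other 5 libraries. Of 7 genes of the normal mammary gland the sum was 58.1, 15.5 and 1.51 RPKM in Vismodegib and 4.77, 1.31 and 0.860 RPKM in DMSO, almost all from Wfdc18 in the highest library. Of the milk genes in this list, Csn1s1, Csn2 and Wap were listed at 0 in all 3 DMSO libraries and in Vismodegib replicate 3. In Vismodegib replicates 1 and 2 they were at most 0.158 RPKM. Lalba and Csn3 differed from these. Lalba was at 1.68, 0.364 and 0.313 RPKM in Vismodegib and at 0.658, 0.223 and 0 RPKM in DMSO. Csn3 was above 0 in all 6 libraries and highest in Vismodegib replicate 1. It was at 0.0457 RPKM in Vismodegib replicate 3 and at most 0.0834 RPKM in DMSO. Elf3, Grhl2, Epcam and Esrp1 were highest in Vismodegib replicate 1, where the mammary gland sum was highest, and the rest of the 10 genes were highest in other libraries. The sums ranged in Vismodegib and DMSO over 10.7 to 97.9 and 7.70 to 15.9 RPKM for 8 adipocyte genes, 75.6 to 148 and 9.67 to 140 RPKM for 8 muscle genes, 75.3 to 184 and 62.2 to 77.5 RPKM for 8 fibroblast genes, 112 to 197 and 135 to 294 RPKM for 12 leukocyte genes, and 23.5 to 50.6 and 20.5 to 42.4 RPKM for 7 endothelial genes. The median log2 differences of the tested marker genes were 1.42 for 5 adipocyte genes, 1.32 for 8 muscle genes, 0.88 for 9 skin genes and 0.74 for 7 fibroblast genes, all of them above 0, against 0.43 for the 9 junction and regulator genes. They were 1.53 for 2 mammary gland genes, 0.39 for 5 endothelial genes and -0.19 for 11 leukocyte genes. With a library dropped, the muscle median was 0.78 without DMSO replicate 3 and 2.21 without DMSO replicate 2, the adipocyte median 2.15 without Vismodegib replicate 3, the skin median 1.34 without Vismodegib replicate 2 and the endothelial median 0.08 without Vismodegib replicate 1. The skin median was -0.07 with library weights. No gene of these marker lists was at 0 in all 6 libraries. Across 11613 genes, GC content correlated with a gene's deviation at -0.22, -0.35 and 0.29 in the Vismodegib libraries and at -0.04, 0.21 and -0.15 in the DMSO libraries. With the trends on GC content and length taken off, the median of the 9 genes was 0.45, and the part of the other markers in the results was not tested.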

How the data were processed

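RNA of 3 Vismodegib and 3 DMSO tumours was read as pairs of 150 bases, and the libraries were grouped by their titles. The authors deposited RPKM values for 23381 gene symbols. The submitters' processing notes name Partek, SAMtools, HISAT2, STAR, cutadapt and bcl2fastq 2.17 and the mm10 build. No source used here gives their roles, the annotation or strand handling, so antisense and overlapping genes are uncertain. RPKM depends on what the other genes contributed to a library's total. Steps between low values of 6992 genes with 1 transcript in GENCODE M21 implied totals of 41600000, 42700000 and 58000000 reads for Vismodegib replicates 1 to 3 and 37500000, 34800000 and 40500000 for DMSO replicates 1 to 3; 83.6% to 85.4% of values up to 20 reads were then whole within 0.02 reads. A total too high by a whole-number factor would not be detected, and whether reads or read pairs were counted is not stated. Read numbers use the longest transcript and carry counting error only.

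limma 3.58.1 (R 4.3.3) was run on log2(RPKM + 0.5) of the 11818 genes averaging 0.5 RPKM or more (eBayes with a trend, group as the only term, two-sided, Benjamini-Hochberg adjustment over all genes tested). The log2 differences understate the change of low genes. The fit was tested on simulated data. The 10 genes and the other lists were chosen with earlier results of these data known. The rule for named genes took all 10 genes, up to 4 tested genes with the smallest p of each other list and those averaging 100 RPKM or more, and the 8 genes most like the profile; some genes under this rule are not reported here. Marker lists are given by their sums; single genes named from them, from the paralogue families and from the untested genes, and the ratios between genes, were chosen after their values were seen. Glycam1 of the mammary gland list had no match in the table used here; all other list genes did. Alternatives changed 1 choice at a time; removal of the GC content and length trends was added after the data were seen.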

Additional observations from a re-analysis of the deposited data

How the results depend on the processing

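The number of genes past the threshold was 420 with library weights, which limma set at 7.28 for DMSO replicate 3 and 0.32 for each other DMSO library, with 19 of them in the lists outside the 10 genes, and 0 to 19 when a library was left out, 19 without DMSO replicate 1. It stayed at 0 with pseudocounts of 0.1 and 1, no filter, a filter of 1 RPKM, quantile or median-ratio scaling, an untrended eBayes and removal of GC content and length trends. The replicate number as a block gave 1 gene; same-numbered libraries had deviations correlated at 0.003, 0.038 and -0.305, 1 of the 6 libraries, DMSO replicate 2, correlated best with its own number, and the numbers were not taken as pairs. The median of the 9 genes was 0.31 to 0.56 in the alternatives that kept all libraries and 0.33 to 0.78 when a library was left out, where 3 to 7 genes did not overlap. Other list medians that moved by more than their spread between libraries were those of the adherens junction list (0.13 with no filter, 0.06 with library weights, 0.15 to 0.60 with a library left out), the leukocyte list (-0.46 to 0.22 with a library left out), and, with library weights, the desmosome (-0.01), surface and protease (0.01) and keratin (-0.30) lists. Elf3, Tmprss4, Epcam, Cldn4, Cldn7 and Grhl2 stayed above 0 in all of these fits. Cdh1 was at -0.24 and Cldn3 at -0.03 with library weights, and Esrp1 at -0.01 without DMSO replicate 2. Depth limits Ovol1, at about 5.95 reads in DMSO replicate 1.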

Other observations

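Values follow for 4 genes of the regulator and surface lists under 0.5 RPKM, chosen after they were seen and not tested. Their Vismodegib libraries all lay above the DMSO libraries, as in 3.49% of the genes under that level. Among the untested genes of the junction lists, Cldn1 was likewise above, Nectin3 was below, and Cldn8, Ildr1 and Cdh3 overlapped. Tmprss13, another transmembrane serine protease, was at 0.126, 0.137 and 0.154 RPKM in Vismodegib, or about 17.0, 19.0 and 29.0 reads, and at 0.00823, 0.00884 and 0.0152 RPKM in DMSO, or about 1, 1 and 2 reads. The Vismodegib libraries were alike in this gene. The Ets genes Elf5, a regulator of the secretory mammary gland, and Ehf were uneven. Elf5 was at 0.650, 0.167 and 0.0587 RPKM in Vismodegib and at 0.0273, 0.00977 and 0.0294 RPKM in DMSO, or about 88.2, 23.3 and 11.1 reads in Vismodegib and 3.33, 1.11 and 3.89 reads in DMSO. Ehf was at 0.336, 0.0672 and 0.0526 RPKM in Vismodegib and at 0.0383, 0.00515 and 0.0133 RPKM in DMSO, or about 62.5, 12.8 and 13.6 reads in Vismodegib and 6.42, 0.800 and 2.41 reads in DMSO. Both were highest in Vismodegib replicate 1, the library with the highest sum of mammary gland genes, 58.1 RPKM. Spdef, another Ets gene, was at 0.198, 0.102 and 0.0150 RPKM in Vismodegib, and in DMSO it was at 0.0116 RPKM in replicate 1 and listed at 0 in replicates 2 and 3. Its lowest Vismodegib value stands for about 1.67 reads and its highest DMSO value for about 0.834 reads, a gap of less than 1 read.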
